A study of Rattus norvegicus with 6 samples.

Results

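The Wnt gene module of cultured rat synovial fibroblast-like cells was followed across 3 serological settings. It was taken as every symbol in the deposited table that names a Wnt ligand, a factor for Wnt secretion (Porcn, Wls), a frizzled receptor, a co-receptor (Lrp5, Lrp6, Ror1, Ror2, Ryk), a secreted modulator (Sfrp, Dkk, Wif1 and Rspo genes), a planar polarity gene of the Celsr and Vangl families, or a central component inside the cell (Dvl, Axin, Ctnnb1, Lef1, Tcf7l2). The rule matched names only and gave 54 of 16499 symbols, but it was chosen with earlier results of these data known. Where a symbol had several rows, the most abundant row was taken.

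The cells came from the joint lining of female Wistar rats with collagen-induced arthritis, a model of rheumatoid arthritis, before any therapy. Cells of the same 2 rats were grown in 3 media, with fetal bovine serum (FBS), with the blood serum of animals left untreated (MS−), or with that of animals given subcutaneous needle stimulation, which the labels call acupuncture, for 18 days (MS+), which gives 6 libraries with 2 in each setting. The number of serum donors is not stated in the labels, and for MS− the description speaks of healthy rats whereas the disease field does not. The p-values therefore measure only the spread between these libraries. Between FBS and the rat sera the species, the age of the donor and the preparation cannot be told apart. The study describes the MS− donors as untreated animals with induced arthritis. It states that MS− serum was drawn before therapy began and MS+ serum at day 18. Between MS+ and MS− the stimulation therefore cannot be told apart from the time of sampling, the duration of disease or the age of the donor. Were the MS− donors healthy, as the description has it, arthritis itself could not be told apart either.

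Each library held 5463316 to 5991889 reads, so 3 reads, taken as the limit of detection, equalled 0.491 to 0.551 CPM (reads scaled to a common library size). Of 10 fibroblast markers, 9 exceeded 3 reads in a library, with summed levels of 62829 to 88028 CPM, while Vcam1 did not and Prg4, the gene of lubricin, stayed between 1.27 and 3.32 CPM. Of 8 macrophage markers, 5 were at 0 reads in all libraries (Ptprc and Adgre1 among them) and 3 exceeded 3 reads, with Cd14 at 12.1 to 19.4 CPM, Cd68 at up to 11 reads and Csf1r at up to 4, and sums of 13.8 to 20.5 CPM. Of 4 endothelial and 6 epithelial markers found, 2 and 4 were at 0 (Cdh5 and Epcam among them), and Tek, at up to 9 reads, and Krt8, at up to 7, exceeded 3 reads. Of 6 muscle markers, 5 exceeded 3 reads in a library, with sums of 2066 to 2498 CPM that came almost wholly from Acta1, Myh11 and Cnn1. Myog had at most 1 read, Des at most 13 and Myod1 at most 33, the last in an FBS library. Proliferation genes (9 matched) summed to 277 to 282 CPM in FBS, 46.1 to 52.8 CPM in MS− and 96.0 to 114 CPM in MS+. In bulk RNA, fewer cells of a type and less RNA per cell cannot be told apart.

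Wnt proteins are secreted lipid-modified ligands. In the canonical branch they bind a frizzled receptor with the co-receptor Lrp5 or Lrp6, which stabilises β-catenin (Ctnnb1) so that it enters the nucleus and activates genes with the factors Lef1 and Tcf7l2. In the non-canonical branches, ligands such as Wnt5a and Wnt5b act through frizzled, Ror and Ryk receptors on the cytoskeleton, and the planar polarity proteins of the Celsr and Vangl families orient cells in the plane of a tissue. In the synovium, Wnt signalling is known for roles in joint formation, in fibroblast activation and in bone remodelling near inflamed joints.

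Of the 54 members, 33 reached 1 CPM in both libraries of at least 1 setting and were tested. No read was found for 9 members in any library, 8 others never exceeded 3 reads, and 4 exceeded 3 reads without reaching the filter. The silent and near-silent members were mostly ligands, since 4 of 17 ligands were tested against all 5 co-receptors and 6 of 7 frizzled receptors. The inhibitors Dkk1, Dkk2 and Sfrp2 and the polarity gene Vangl2 also had no read. At this depth their absence means only that they lay under the limit of detection.

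**Figure D1:**
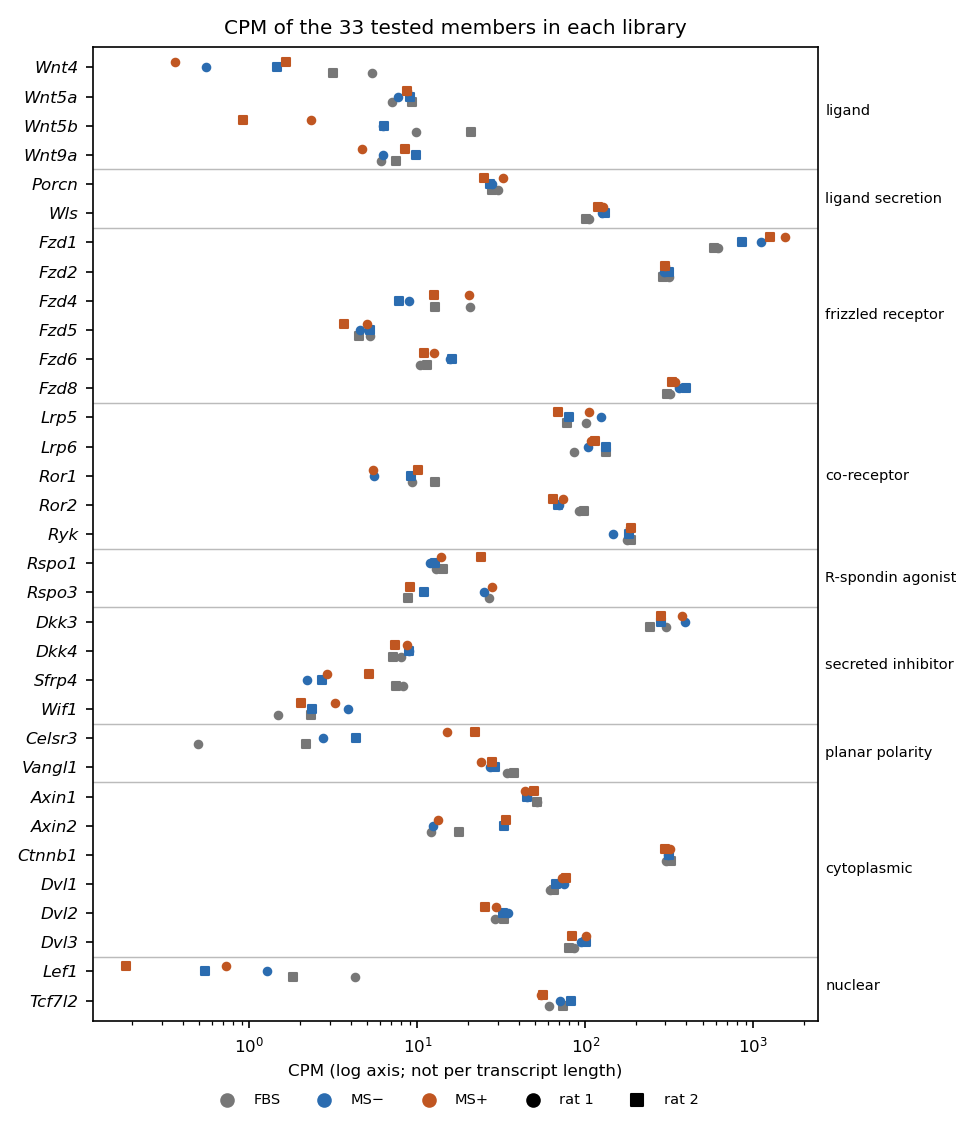
Level of each of the 33 tested members in each of the 6 libraries, in CPM on a log axis, ordered by role; colours mark FBS, MS− and MS+, circles rat 1 and squares rat 2. Levels are not corrected for transcript length, so distances between genes are not comparable, and the libraries of a gene should be compared along its own line. Celsr3 runs from 0.491 CPM in an FBS library to 22.0 CPM in an MS+ library, whereas the 6 points of Ctnnb1 nearly coincide.

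Changes are given as log2 fold changes of CPM + 1 with their standard errors, from limma over 9820 features. Calls followed the rule of the study (unadjusted p under 0.05 and at least 2-fold, with a mean of at least 1 CPM) or a Benjamini-Hochberg adjusted p under 0.05. Because the libraries of a rat vary together, the adjusted p with the rat as a block is given wherever it changes a call.

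Among the 33 tested members, 2 passed the study rule between MS+ and MS−, Celsr3 (higher) and Wnt5b (lower), against 1.24% of all features. None passed the adjusted threshold in limma (0.0204% of all features), none passed in edgeR or limma-voom, and 1 passed in DESeq2. An unadjusted p under 0.05 was found for 6 members (14.7% of all features). With the rat as a block 5 members passed, which were Celsr3, Fzd1 and Fzd4 (higher) and Wnt5b and Tcf7l2 (lower), against 10.1% of all features. Those 5 are 15.2% of the members. The median change of the members was -0.035, beside -0.006 over all features, and 27 of the 33 differed by less than 0.5.

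Between MS+ and FBS, 5 members passed the study rule (5.3% of all features), with Celsr3 and Fzd1 higher and Wnt5b, Wnt4 and Lef1 lower. The adjusted threshold was passed by 4 members, Celsr3, Fzd1, Wnt5b and Ror2 (9.61% of all features), and by 10 with the rat as a block (28.2%). These counts are 15.2%, 12.1% and 30.3% of the members. In MS− against FBS, 5 members passed the study rule (3.62% of all features), of which Celsr3 was higher and Lef1, Sfrp4, Wnt4 and Wnt5b were lower. Only Sfrp4 passed the adjusted threshold (4.81% of all features), and 11 members did with the rat as a block (20.5%). These counts are 15.2%, 3.03% and 33.3% of the members. Against FBS, the median change of the members was -0.021 in MS+ and 0.1 in MS−, beside 0.001 and 0.014 over all features. MS+ and MS− share the FBS libraries as their reference, so the comparisons with FBS are not independent.

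**Figure D2:**
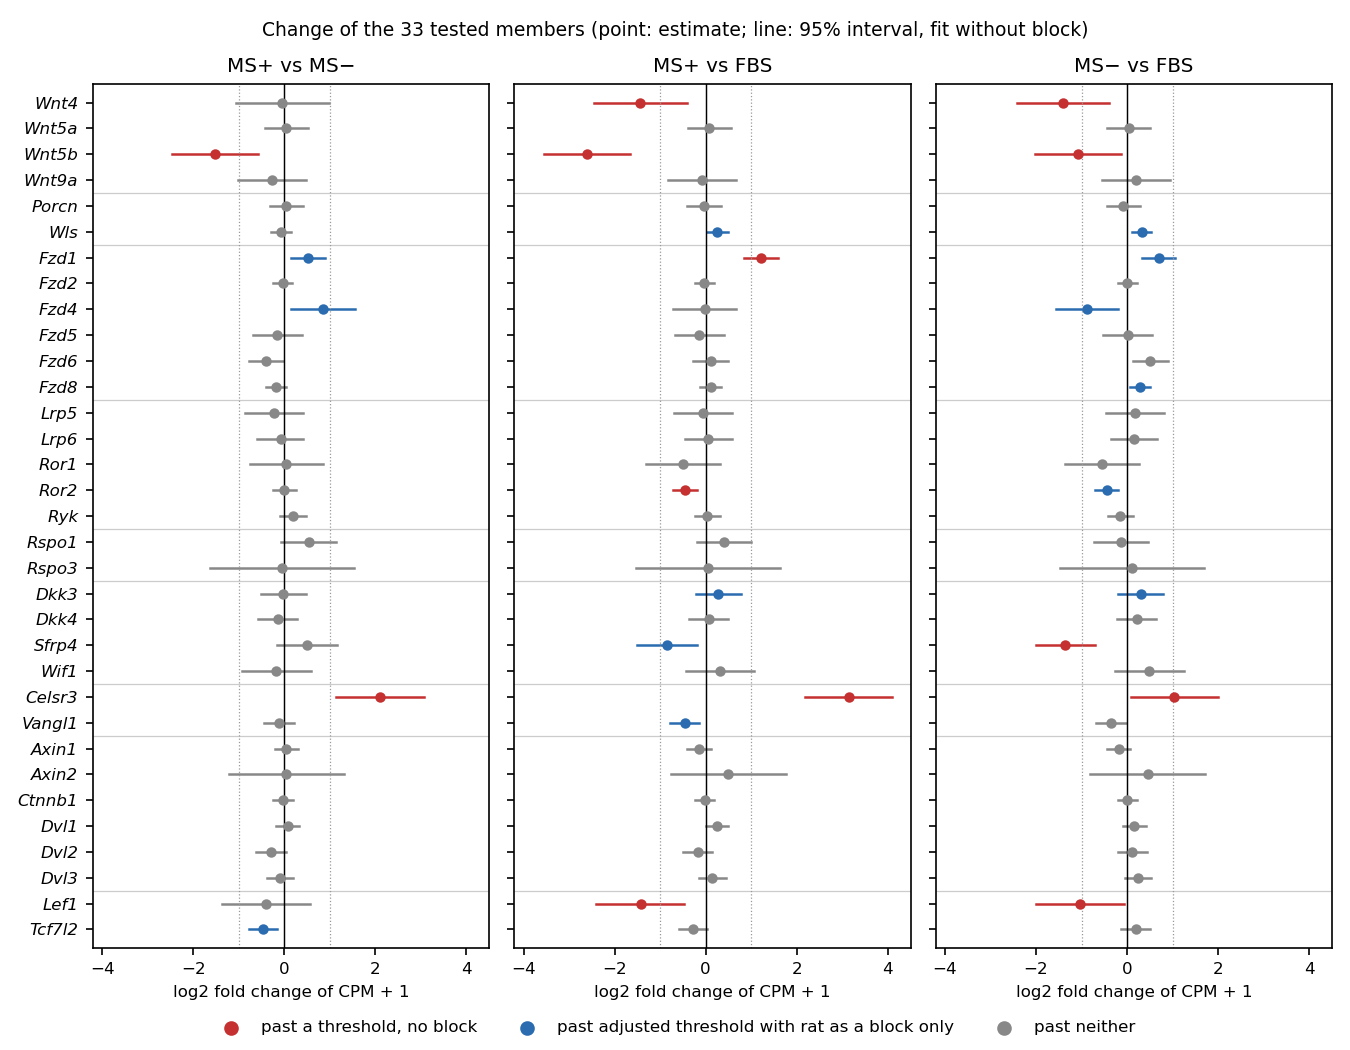
Log2 fold change of CPM + 1 of the 33 tested members in MS+ against MS−, MS+ against FBS and MS− against FBS, from limma without the block; points are estimates, lines 95% intervals, dotted lines mark 2-fold. Red marks a call by either rule without the block, blue a call by the adjusted threshold only with the rat as a block, grey neither. Celsr3 lies farthest to the right in each panel (2.1, 3.14 and 1.04) and Wnt5b farthest to the left in both panels of MS+ (-1.52 and -2.60).

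The 4 tested ligands were Wnt4, Wnt5a, Wnt5b and Wnt9a. Wnt5b, a non-canonical ligand that the study had singled out as a marker, is encoded on the minus strand of chromosome 4 (NM_001100489, rn4 chr4:155747648-155763554). The study also measured it by qRT-PCR, with Fos and Gjb2, and read these markers as a repressed mesenchymal state in MS+. In the libraries Wnt5b measured 9.82 and 20.9 CPM under FBS in rats 1 and 2, 6.22 and 6.33 CPM in MS−, and 2.34 and 0.918 CPM in MS+. The last value came from 5 reads. The 3 settings did not overlap, and their order, FBS above MS− above MS+, was found for 4.66% of all features. By mean CPM Wnt5b was 3.85-fold lower in MS+ than in MS−. On the scale of CPM + 1, which understates changes of low genes, the log2 change was -1.52 (SE 0.40; limma adjusted p = 0.183, and 0.00628 with the rat as a block). The cells of the rats differed in the size of the change, with -1.11 in rat 1 and -1.93 in rat 2. In MS+ against FBS it was -2.6 (limma adjusted p = 0.0131), with -1.70 in rat 1 and -3.51 in rat 2. The adjusted threshold was lost without FBS replicate 2, MS+ replicate 1 or MS+ replicate 2, while the study rule was kept in each case. From FBS to MS− the change was -1.08 (adjusted p = 0.183, and 0.024 with the block), and it missed the study rule without FBS replicate 2, the highest library (-0.57), without either MS− library or with a pseudocount of 0.1.

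Wnt5a, the closest relative of Wnt5b and a non-canonical ligand produced by mesenchymal cells (chromosome 16, NM_022631, rn4 chr16:3782025-3799625), showed no such order. It measured 7.04 and 9.28 CPM in FBS, 7.68 and 9.04 CPM in MS−, and 8.65 and 8.63 CPM in MS+. Its libraries overlapped, and the change between MS+ and MS− was 0.05 with a 95% interval of -0.43 to 0.52. In the same comparison the interval of Wnt5b was -2.46 to -0.58, so the intervals of the pair did not overlap, although the difference between the genes was not itself tested.

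Wnt4, a ligand known from kidney and gonad development and from joint formation (chromosome 5, NM_053402, rn4 chr5:156064371-156083198), was lower in both rat sera than in FBS. It measured 5.40 and 3.15 CPM in FBS, 0.549 and 1.45 CPM in MS−, and 0.360 and 1.65 CPM in MS+. Both FBS libraries lay above the 4 others, which rest on 2 to 9 reads each. The change was -1.44 (SE 0.43) between MS+ and FBS (limma adjusted p = 0.0837, and 0.00605 with the block) and -1.41 between MS− and FBS (0.127, and 0.00945 with the block). Between MS+ and MS− it was -0.04, with a 95% interval of -1.05 to 0.98, so a difference was not detectable at this depth. Without FBS replicate 1 both changes from FBS lost the study rule (-1.13 and -1.09), as did the change in MS+ without MS+ replicate 1 (-0.96) and that in MS− without MS− replicate 1 (-1.08). Wnt9a, a ligand of the joint interzone, stayed between 4.68 and 9.76 CPM with no change past a threshold.

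**Figure D3:**
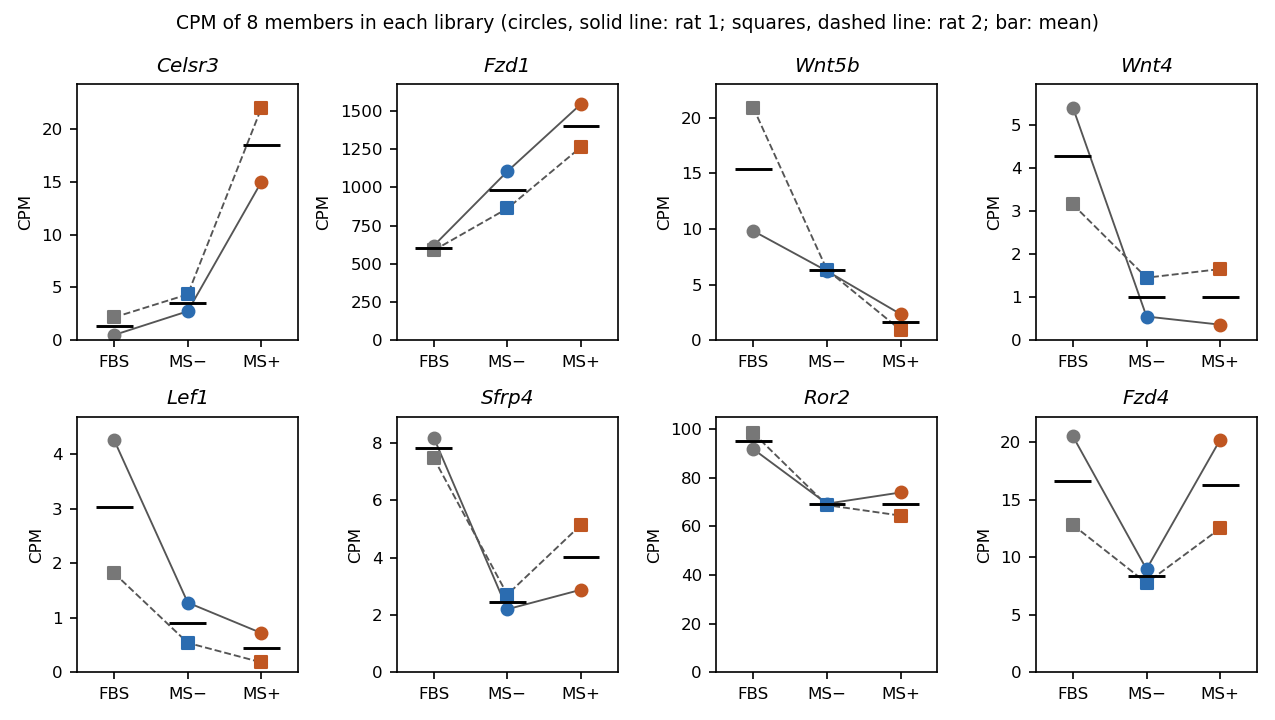
CPM of 8 members in each library, by setting on the x axis and level in CPM on the y axis starting at 0; circles joined by solid lines are rat 1, squares joined by dashed lines rat 2, and bars the mean of the setting. Celsr3 and Fzd1 climb from FBS over MS− to MS+ in both rats and Wnt5b falls, Wnt4, Lef1, Sfrp4 and Ror2 are highest in FBS, and Fzd4 is lowest in MS−.

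Wls, the carrier that takes lipidated Wnt proteins to the cell surface, measured 106 and 100.3 CPM in FBS, 126 and 131 CPM in MS−, and 127 and 119.7 CPM in MS+. Both FBS libraries were the lowest. Its change was 0.32 in MS− (limma adjusted p = 0.109, and 0.0194 with the block) and 0.26 in MS+ (0.122, and 0.0413 with the block) against FBS. Porcn, the acyltransferase that attaches the lipid, changed by at most 0.08 in either direction between settings and passed no threshold.

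Fzd1, a seven-pass receptor of Wnt ligands (chromosome 4, NM_021266, rn4 chr4:25994423-25998821), rose in the order FBS, MS−, MS+ and rests on 3541 to 8574 reads a library. It measured 618 and 587 CPM in FBS, 1104 and 862 CPM in MS−, and 1545 and 1263 CPM in MS+. The settings did not overlap, an ascending order that 2 of the 33 members (Celsr3 and Fzd1) and 5.38% of all features showed. The mean in MS+ was 2.33-fold that in FBS, a log2 change of 1.21 (SE 0.155; limma adjusted p = 0.0084). The adjusted threshold was lost without FBS replicate 1 (change 1.25) or MS+ replicate 1 (1.07), while the study rule was kept in both cases. From MS− to MS+ the change was 0.52 (SE 0.155; adjusted p = 0.222, and 0.00165 with the block), with 0.48 in rat 1 and 0.55 in rat 2. From FBS to MS− it was 0.69 (adjusted p = 0.0568, and 3.54e-05 with the block), past the adjusted threshold in DESeq2 without the block (0.00248).

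Fzd4, a receptor known from vessel formation, went another way. It was named after its values were seen. It measured 20.5 and 12.8 CPM in FBS, 8.96 and 7.77 CPM in MS−, and 20.2 and 12.5 CPM in MS+. Both MS− libraries were below the 4 others, and in each rat the values in FBS and MS+ were nearly alike. The change was 0.85 (SE 0.292) between MS+ and MS− (limma adjusted p = 0.256, and 0.00766 with the block) and -0.88 between MS− and FBS (0.151, and 0.00288 with the block). Between MS+ and FBS it was -0.02, with a 95% interval of -0.72 to 0.67.

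The other frizzled receptors showed smaller changes. Fzd8 was called only between MS− and FBS and only with the block, at 0.29 (limma adjusted p = 0.143, and 0.0226 with the block). Fzd2 measured 292 to 315 CPM over the 6 libraries and its changes ranged from -0.03 to 0.00. Fzd5 passed no threshold, and Fzd6 passed none either, at -0.40 between MS+ and MS− (limma adjusted p = 0.316) and 0.51 between MS− and FBS (0.134), the latter past the adjusted threshold in edgeR with the block (0.0438). Fzd9 never exceeded 5 reads. The receptors share sequence, so reads of one may have been counted for another, which could not be checked here.

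Ror2, a receptor tyrosine kinase of the non-canonical branch that binds Wnt5a (chromosome 17, NM_001107339, rn4 chr17:17735999-17917032), measured 91.7 and 98.3 CPM in FBS, 69.3 and 68.7 CPM in MS−, and 73.9 and 64.4 CPM in MS+. Both FBS libraries lay above the 4 others, and the rat sera overlapped. The mean was 1.37-fold lower in MS+ than in FBS, a log2 change of -0.46 (SE 0.107; limma adjusted p = 0.0452, and 0.00362 with the block). In MS− it was -0.45 against FBS (0.0665, and 0.005 with the block). Between MS+ and MS− it was 0.00, with an interval of -0.25 to 0.25. The call in MS+ was lost when any 1 of the 6 libraries was left out, with adjusted p from 0.0832 to 0.181, and also without the filter on low values (0.0621) and in DESeq2 (0.0649). Ryk, an atypical kinase co-receptor, measured 147 to 187 CPM, and Lrp5, Lrp6 and Ror1 likewise passed no threshold, with the widest intervals for Ror1.

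R-spondins strengthen Wnt signals by keeping frizzled receptors at the cell surface. Rspo3 measured 26.7, 24.9 and 27.9 CPM in the cells of rat 1 under FBS, MS− and MS+, and 8.79, 11.0 and 8.99 CPM in those of rat 2. The rats were apart in every setting while the settings overlapped, and the log2 difference of rat 2 from rat 1 was -1.5, -1.11 and -1.53. Rspo3 alone among the 33 members differed by 2-fold or more between the rats in the same direction in each setting, as 0.916% of all features did in either direction. With 1 library for each rat and setting, no test was made of this difference. Rspo1 measured 11.9 to 23.9 CPM and passed no threshold, and Rspo2 had 1 read in all.

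Sfrp4, a secreted decoy that binds Wnt ligands (chromosome 17, NM_053544, rn4 chr17:53121425-53131507), measured 8.18 and 7.46 CPM in FBS, 2.20 and 2.71 CPM in MS−, and 2.88 and 5.14 CPM in MS+. The settings did not overlap, with FBS highest and MS− lowest, an order whose share among all features was not counted. By mean CPM Sfrp4 was 3.19-fold lower in MS− than in FBS. The log2 change of CPM + 1 was -1.36 (SE 0.274; limma adjusted p = 0.0432). The adjusted threshold was lost without any 1 of the FBS or MS− libraries and missed narrowly in limma-voom (0.0515) and DESeq2 (0.0527). The change was -0.85 in MS+ against FBS (0.102, and 0.0188 with the block), and 0.50 between MS+ and MS− (0.466), past no threshold with or without the block. In limma-voom and with a pseudocount of 0.1, the change of Sfrp4 in MS+ against FBS did pass the study rule. Dkk3, the Dickkopf-family gene with the most reads, measured 300.1 and 242 CPM in FBS, 391 and 280 CPM in MS−, and 379 and 283 CPM in MS+. Rat 1 was above rat 2 in each setting, and only with the block did Dkk3 pass against FBS, at 0.28 in MS+ (adjusted p = 0.0173) and 0.30 in MS− (0.0169). Dkk4 and Wif1, which bind the co-receptor and the ligand respectively, passed no threshold.

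Celsr3, a seven-pass cadherin known from axon guidance and planar polarity (chromosome 8, plus strand, NM_031320, rn4 chr8:113882883-113923950), measured 0.491 and 2.16 CPM in FBS, 2.74 and 4.34 CPM in MS−, and 15.0 and 22.0 CPM in MS+, from 3, 13, 15, 24, 83 and 120 reads. The settings did not overlap, and rat 2 was above rat 1 in each. The mean CPM in MS+ was 5.22-fold that in MS−. The log2 change of CPM + 1 was 2.1 (SE 0.402; limma adjusted p = 0.126, and 7.24e-05 with the block). DESeq2 without the block gave an adjusted p of 0.00506. The change was nearly equal in the cells of both rats, 2.09 and 2.11. Against FBS it was 3.14 in MS+ (adjusted p = 0.0084). The adjusted threshold was lost without MS+ replicate 1 (change 3.41) or 2 (2.88), while the study rule was kept in both cases. In MS− the change from FBS was 1.04 (adjusted p = 0.2, and 0.00565 with the block). That change missed the study rule without the FBS library of 3 reads (0.50) or MS− replicate 2 (0.79). It also missed the rule without the filter on low values, in edgeR and in limma-voom. Since Celsr3 is best known from neurons, the list of glial and neuronal markers is given beside it. Of its 6 genes, 3 exceeded 3 reads, Sox10 and Elavl4 were at 0, and the summed level was 58.4 to 68.8 CPM in FBS, 45.7 to 56.9 CPM in MS− and 88.3 to 98.0 CPM in MS+, mostly Tubb3 and S100b. The part of these genes in the result was not tested.

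Vangl1, a four-pass membrane protein of the polarity complex, moved in the opposite direction by a small amount. It measured 34.0 and 37.8 CPM in FBS, 26.9 and 28.9 CPM in MS−, and 23.8 and 27.9 CPM in MS+. Both FBS libraries were the highest, and the change in MS+ was -0.46 (SE 0.137; limma adjusted p = 0.0827, and 0.0136 with the block). Between MS+ and MS− the change was -0.11, with an interval of -0.44 to 0.21. Celsr2 had 1 to 4 reads a library and Vangl2 none.

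Among the components inside the cell, Ctnnb1, the gene of β-catenin, measured 302 and 325 CPM in FBS, 312 and 316 CPM in MS−, and 319 and 299.5 CPM in MS+, and its change between MS+ and MS− was -0.02 (95% interval -0.24 to 0.19). Axin1, a scaffold of the complex that degrades β-catenin, and Dvl1, Dvl2 and Dvl3, which relay the receptor signal, changed between -0.29 and 0.24 and passed no threshold. A transcript level does not measure the protein, whose stability is what the pathway regulates.

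Axin2, a feedback inhibitor and common target of β-catenin, was named after its values were seen. It measured 12.1, 12.4 and 13.2 CPM in the cells of rat 1 under FBS, MS− and MS+, and 17.6, 32.9 and 33.6 CPM in those of rat 2. From FBS to MS− the change was 0.87 in rat 2 and 0.04 in rat 1, to MS+ it was 0.90 and 0.11, and the rats lay apart by 1.33 in MS− and 1.29 in MS+. Over both rats Axin2 passed no threshold in limma, with changes from FBS of 0.50 in MS+ and 0.45 in MS− (limma adjusted p = 0.589 and 0.686), and the change in MS+ passed in edgeR with the block (0.0274). With a single library for each rat and setting, a difference in response between the rats was not tested.

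Lef1, a nuclear partner of β-catenin that is itself a target (chromosome 2, NM_130429, rn4 chr2:228550263-228673131), measured 4.26 and 1.82 CPM in FBS, 1.28 and 0.542 CPM in MS−, and 0.721 and 0.184 CPM in MS+, from 26, 11, 7, 3, 4 and 1 reads. Both FBS libraries were highest and rat 1 was above rat 2 in each setting. The change was -1.43 (SE 0.406) in MS+ (limma adjusted p = 0.0752, and 0.00187 with the block) and -1.04 in MS− (0.205, and 0.0204 with the block), both against FBS. Without FBS replicate 1 both missed the study rule (-0.98 and -0.59), as did the change in MS+ without MS+ replicate 2 (-1.16). The change in MS− missed it without MS− replicate 2 (-0.76). Unlike that in MS+, it also missed the rule in limma-voom, in DESeq2 and with a pseudocount of 0.1. For Lef1, between MS+ and MS− a difference was not detectable at this depth. Tcf7l2, the other nuclear partner tested, measured 60.6 and 73.6 CPM in FBS, 70.8 and 81.7 CPM in MS−, and 54.6 and 55.6 CPM in MS+. Both MS+ libraries were the lowest, and the change from MS− was -0.46 (SE 0.131; limma adjusted p = 0.207, and 0.0112 with the block).

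Wnt4, Lef1 and Wnt5b passed the study rule as lower in both rat sera than in FBS, and Sfrp4 and Ror2 passed the adjusted threshold in both with the rat as a block. The summed proliferation genes were highest in the same FBS libraries. Between MS+ and MS−, where the proliferation sums were higher in MS+, the changes of Wnt4, Lef1, Ror2 and Sfrp4 were -0.04, -0.39, 0.00 and 0.50, none past a threshold, and Wnt5b was lower in MS+, as given above (-1.52). Fzd4 was lower in MS− than in FBS (-0.88) and higher in MS+ than in MS− (0.85), both past the adjusted threshold only with the block. Its change between MS+ and FBS was -0.02. The part of cell division in these results was not tested.

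**Figure D4:**
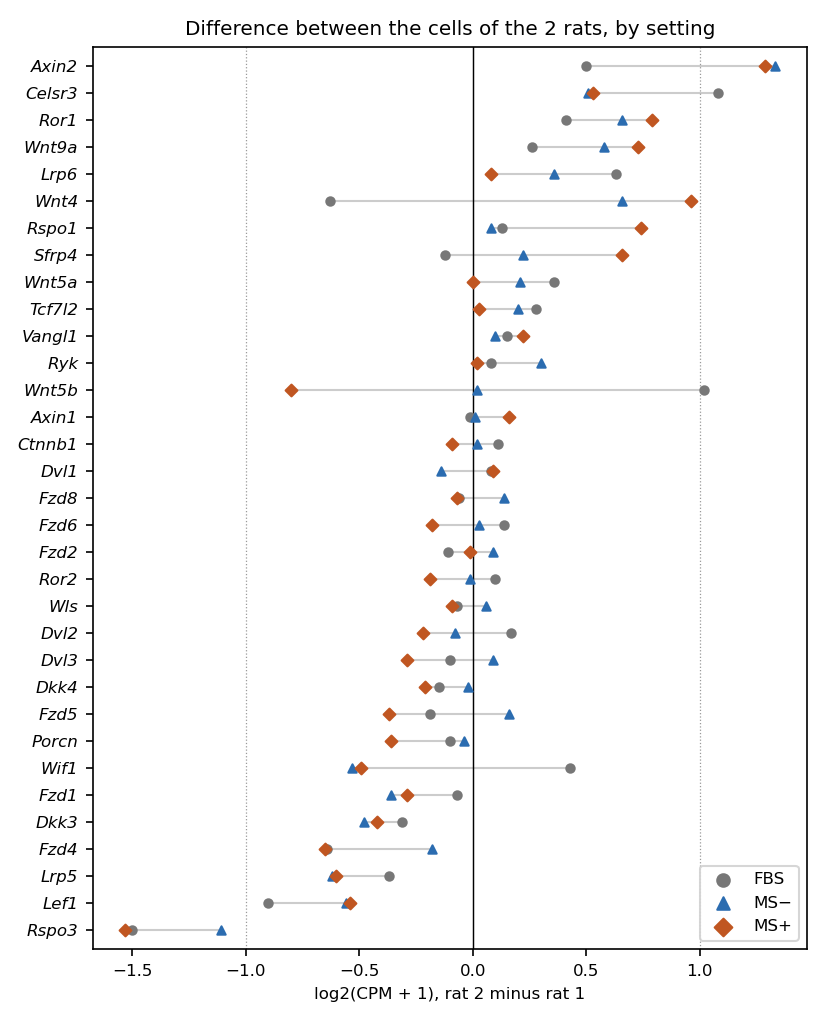
Difference between the cells of the 2 rats, as log2(CPM + 1) of rat 2 minus rat 1, for each of the 33 tested members, with circles for FBS, triangles for MS− and diamonds for MS+; dotted lines mark 2-fold. All 3 points of Rspo3 lie beyond 2-fold to the left (-1.5, -1.11 and -1.53), Axin2 lies beyond 2-fold to the right in MS− and MS+ only (1.33 and 1.29), and Wnt5b lies on both sides of 0 (1.02, 0.02 and -0.80).

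The sign of the difference between rats was the same in all 3 settings for 17 of the 33 members (51.5%), beside 42.4% of all features. Members whose sign was kept included Celsr3 and Ror1, higher in rat 2, and Lef1, Dkk3, Lrp5 and Fzd4, higher in rat 1.

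Upstream sequences are shown for Celsr3 and Fzd1, which rose in the same order, and for Lef1, lower in both rat sera than FBS. Axin2 is included because its promoter is a textbook example of control by TCF and LEF factors. All are the 250 bases before the annotated start, on the plus strand, 5′ to 3′, from RefSeq on assembly GRCr8, not on rn4. Capitals mark matches to the TCF and LEF letters (CTTTG followed by AA, AT, TA or TT) or to the AP-1 letters TGAGTCA, searched on both strands, where no 2 matches overlapped. The positions are chr8:118408886-118409135 for Celsr3, chr4:30264824-30265073 for Fzd1, chr2:222340463-222340712 for Lef1 and chr10:94398535-94398784 for Axin2.
Celsr3: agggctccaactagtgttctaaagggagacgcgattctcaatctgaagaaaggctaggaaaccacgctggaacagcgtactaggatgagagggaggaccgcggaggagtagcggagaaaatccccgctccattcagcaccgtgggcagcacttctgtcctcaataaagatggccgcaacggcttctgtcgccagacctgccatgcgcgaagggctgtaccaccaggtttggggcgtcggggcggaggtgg
Fzd1: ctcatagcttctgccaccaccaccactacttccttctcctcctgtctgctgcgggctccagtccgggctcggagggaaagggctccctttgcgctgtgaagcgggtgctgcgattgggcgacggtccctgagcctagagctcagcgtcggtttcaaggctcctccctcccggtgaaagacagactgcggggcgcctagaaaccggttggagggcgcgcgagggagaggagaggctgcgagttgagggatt
Lef1: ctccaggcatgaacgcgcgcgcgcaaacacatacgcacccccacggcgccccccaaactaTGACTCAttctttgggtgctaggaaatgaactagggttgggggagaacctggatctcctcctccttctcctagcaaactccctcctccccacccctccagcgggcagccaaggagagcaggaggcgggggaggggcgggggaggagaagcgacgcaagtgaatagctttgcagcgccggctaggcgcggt
Axin2: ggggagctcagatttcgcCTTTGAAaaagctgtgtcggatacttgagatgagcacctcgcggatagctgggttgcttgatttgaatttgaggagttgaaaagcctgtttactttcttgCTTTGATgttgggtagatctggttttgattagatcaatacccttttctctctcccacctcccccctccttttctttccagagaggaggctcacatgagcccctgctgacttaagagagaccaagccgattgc

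RefSeq promoter windows of 300 bases, from 250 before to 50 after the start, were found for 40 of the 54 members. A TCF or LEF match was present in 5 of these 40 windows (Axin2, Dkk1, Sfrp5, Wnt3 and Wnt8a), or 12.5%, against 16.8% of all 27457 windows. Of the 5 genes, only Axin2 was tested, and its matches began 232 and 132 bases before the start. An AP-1 match was present in 2 of the 40 windows (Lef1 and Wnt16), or 5.0%, against 4.53% of all, and that of Lef1 began 190 bases before the start. The windows of Celsr3 and Fzd1 held neither set of letters, with 23 and 24 CpG dinucleotides, beside a median of 25.5 over the members and 7 over all windows. Those of Lef1 and Axin2 held 23 and 5 CpG dinucleotides. A match of letters is no measure of binding.

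Other genes of the pathway were read from a list of 65, of which 57 were found and 45 tested. Between MS+ and MS− none passed the study rule or the adjusted threshold in limma. With the rat as a block 2 did (4.44%, against 10.1% of all features), the β-catenin targets Myc (0.77, limma adjusted p = 0.177, and 0.00226 with the block) and Ccnd1 (-0.31, 0.554, and 0.0313 with the block), in opposite directions. Against FBS, Prickle2, a cytoplasmic planar polarity protein, was higher in MS+ (0.93, limma adjusted p = 0.0114) and in MS− (0.87, 0.019). Its levels were 74.3 and 96.7 CPM in FBS, 151 and 159 CPM in MS−, and 168 and 158 CPM in MS+, without overlap between FBS and either rat serum. The call of Prickle2 was lost without either MS+ library (0.0891 and 0.0621) in MS+, and in MS− without FBS replicate 1 (0.0746) or either MS− library (0.107 and 0.122). Ctnnbip1, an inhibitor that keeps β-catenin from TCF factors, was lower in MS+ (-1.14, limma adjusted p = 0.0214) and in MS− (-1.11, 0.0309). It lost the adjusted threshold in MS+ without FBS replicate 1, MS+ replicate 1 or MS+ replicate 2. In MS− it lost that threshold without any 1 of the FBS or MS− libraries or without the filter on low values (0.0674). Lgr4, the R-spondin receptor, was lower in MS+ (-0.68, limma adjusted p = 0.0328) and, with the block only, in MS− (-0.53, 0.0938, and 0.0105). The call of Lgr4 in MS+ was lost when any 1 of the 6 libraries was left out (0.0561 to 0.162) or the filter on low values was dropped (0.0539). With the rat as a block, 5 of the 45 were higher and 10 lower in MS+ than in FBS, and 4 were higher and 6 lower in MS− than in FBS. These are 33.3% and 22.2% of the list, against 28.2% and 20.5% of all features. The medians of the list were -0.07, 0.00 and 0.02 in the 3 comparisons.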

How the data were processed

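RNA of the 6 cultures was sequenced. Per the labels, the authors aligned reads to rn4 with Bowtie2 2.1.0 and counted them per transcript with HTSeq 0.5.4p3. They deposited a normalized signal, CPM on library sizes scaled by the TMM method of edgeR, in 17221 rows. From these values whole reads were recovered (100% of values within 1e-06 reads). Starts were converted to 1-based positions. Strand use was not stated, and no member overlaps a row of another symbol.

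Features at 1 CPM or more in both libraries of at least 1 setting (9820) were tested with limma 3.58.1 (lmFit, eBayes with trend, two-sided, R 4.3.3) on log2(CPM + 1), a scale that understates changes of low genes. Culture condition was the only term, and all 6 libraries entered. P-values were adjusted over all 9820 features by the Benjamini-Hochberg method. Since the labels give each group a library of either rat, RA1 or RA2, the replicate number pairs libraries, and differences between the rats correlated between settings by 0.49 to 0.62 across features. The rat was therefore also used as a block. Alternatives were edgeR 4.0.16, DESeq2 1.42.0 and limma-voom on recovered reads, other scalings, filters and pseudocounts, and leaving out each library. The fit was tested on simulated data.

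Members past a threshold without the block or changed by 2-fold or more with it, the most abundant member of each role, Wnt5a and Wnt5b are described by library, and other members named were picked after their values were seen. The members and lists were chosen with earlier results of these data known. Intervals and detection limits cover counting or replicate error only. For orders of the settings other than a rise or a fall from FBS over MS− to MS+, the share of all features was not counted.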

Additional observations from a re-analysis of the deposited data

Results flagged for a closer look

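Wls had a second transcript row, which was left out of the comparisons above. It measured 5.14 to 8.63 CPM over the 6 libraries, above the detection limit of 3 reads in each. Adding it to the first row changed no call, with log2 changes of -0.06 in MS+ against MS−, 0.27 in MS+ against FBS and 0.33 in MS− against FBS.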

How the results depend on the processing

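Among the members described by library, no value called in either fit changed direction. Other members and the other genes of the pathway were not part of this check. With the rat as a block (replicate block), the members past the adjusted threshold went from 0 to 5 for MS+ over MS−, from 4 to 10 for MS+ over FBS, and from 1 to 11 for MS− over FBS. In edgeR with the block, chosen after seeing the data, the counts were 5, 11 and 12. DESeq2 passed 1 member (Celsr3) for MS+ over MS−. For MS+ over FBS the study rule passed 6 members in limma-voom and 6 with a pseudocount of 0.1, with Sfrp4 added in both. For MS− over FBS the adjusted threshold passed 0 members without a filter on low values, 0 in limma-voom and 2 with library totals, and the study rule passed 3 with a pseudocount of 0.1 and 3 in limma-voom. The cause was not tested. Leaving out each library in turn, the study rule gave 2 to 3 members for MS+ over MS−, 3 to 5 for MS+ over FBS and 2 to 5 for MS− over FBS, and the adjusted threshold 0, 0 to 3 and 0 to 1. Celsr3 and Wnt5b passed the study rule between MS+ and MS− without any 1 library. Between MS+ and FBS no member passed the adjusted threshold without MS+ replicate 1. Where a library was left out, the lone library of its setting is assumed to vary like the other settings. Signs changed in 43 of 816 values of the members described by library, none of them past a threshold in either fit. The sizes of these values were at most 0.5 as reported and 0.72 under the alternative. Depth limited Lef1, Wnt4 and Celsr3 most, with libraries of 1 to 3 reads.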
